A study of Mus musculus with 23 samples.

Results

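The genes described here are the mouse enzymes that add methyl groups to histone lysines or take them off, together with their closest relatives by name. They were chosen by gene symbol: every Kmt, Kdm, Setd, Setdb, Suv39h, Ehmt, Ezh, Nsd, Dot1l, Smyd, Ash1l and Prdm symbol with a mean of at least 10 counts over the 17 dorsal hippocampus libraries, without the sex-linked Kdm5c, Kdm5d and Kdm6a. Of 66 matching symbols, 3 were left out as sex-linked and 6 fell under the mean count (Prdm1, Prdm6, Prdm12, Prdm13, Prdm14 and Setdb2), which left 57 of the 24985 symbols counted. Kdm4d, with a mean of 10.5 counts, lay just inside the limit, and Prdm1, with 7.24, just outside. The 57 comprise 26 methyltransferases, 15 demethylases, 9 SET domain proteins whose substrates are other proteins or debated, and 7 further PRDM zinc finger factors. All 57 passed the filter on low counts in both experiments.

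The study compared the hippocampus of C57BL6/J mice with and without Acss2, which encodes an enzyme that makes acetyl-CoA from acetate. In the KO alleles exons 3 to 7 of Acss2 were deleted in every cell from the embryo on, so no cell type was targeted. The whole hippocampus of home cage mice was sequenced in WT, Het and KO (n = 2 each, batch B0). The dorsal hippocampus, cut in 1 mm sections, was sequenced in WT home cage (n = 5), WT fear (n = 3), KO home cage (n = 5) and KO fear (n = 4) mice, where fear stands for tissue taken 30 min after contextual fear conditioning with 1 shock. The labels give neither the age nor the sex of the mice.

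Histone lysine methylation marks stretches of chromatin: methyl groups on lysine 4 of histone H3 (H3K4) lie at active promoters and enhancers, those on H3K36 along transcribed gene bodies, and those on H3K9, H3K27 and H4K20 largely in silenced chromatin. SET domain enzymes and Dot1l write these marks with S-adenosylmethionine as donor, and amine oxidases (Kdm1) and Jumonji enzymes (Kdm2 to Kdm8) erase them. In neurons, loss of Kmt2a, Kmt2b, Ehmt1 or Kdm1a is known to alter memory or gene regulation, and several human neurodevelopmental syndromes arise from mutations in this gene family.

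Sequencing gave 18814460 to 27293661 counts per library in whole hippocampus. In dorsal libraries of batch B1 it gave 5362773 to 9109104, in B2 18346424 to 23412644 and in B3 14054430 to 19136156. The 3 WT fear libraries all came from B1, as did WT home cage 1 and 2 and KO fear 1 and 2. Batch B2 held WT home cage 3 to 5 beside KO home cage 1 to 3, and B3 the remaining KO libraries (home cage 4, 5; fear 3, 4). Acss2 matched the labelled genotype, at 56.2 to 71.3 CPM (counts per 1000000 counts of the library, scaled by TMM) in dorsal WT and 3.87 to 6.04 CPM in dorsal KO. The Y-linked demethylase Kdm5d had 0 counts in both whole hippocampus WT libraries, a mean of 0.027 CPM in Het and 33.5 CPM in KO. Genotype and sex thus cannot be told apart between KO and WT or between KO and Het there. Every dorsal library expressed Kdm5d. Kdm5c, its X-linked partner, stood at 104 ± 1.5 CPM in whole WT, 96.4 ± 1.5 in Het and 88.8 ± 4.4 in KO (SD, n = 2 each). Kdm6a stood at 44.1 ± 2.4, 48.0 ± 0.57 and 33.4 ± 1.4. Nothing in the labels shows that replicates are separate animals, so p-values measure the spread between these libraries, which may be technical.

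No promoter mark was measured, so the sequences here only show what kind of start sites the genes have. RefSeq promoters of GRCm38.p6 were found for 42 of the 57 genes (58 promoters). Over the 250 bases before the start these held a median of 21.5 CG pairs, against 6 over all 32851 promoters. The GC box GGGCGG, read on both strands, was present in 65.5% of them and in 32.7% of all promoters. The cyclic AMP response element TGACGTCA, which is its own reverse complement, occurred in 1 of the 58 (1.72%, Suv39h2), against 1.55% of all. The 57 were chosen for their counts in hippocampus, while all promoters are those of 27025 genes with no filter on counts. Whether the 57 differ in these respects from other expressed genes was not tested. The stretches below lie upstream of the 3 genes with the smallest p among those that were lower in KO after fear and had 1 listed promoter, and of Smyd2, the 1 gene that was higher. Capitals mark the CG pairs, each sequence reads 5′ to 3′ on the strand of its gene, and bases inside the annotated gene were left off. In mm10 (GENCODE M21) the Kdm4a gene lies on chromosome 4 from 118136957 to 118180043, Kdm5b on chromosome 1 from 134560171 to 134635285, Kmt2a on chromosome 9 from 44803355 to 44881296 and Smyd2 on chromosome 1 from 189880492 to 189922363.
Kdm4a (chr4:118180044-118180293, minus strand): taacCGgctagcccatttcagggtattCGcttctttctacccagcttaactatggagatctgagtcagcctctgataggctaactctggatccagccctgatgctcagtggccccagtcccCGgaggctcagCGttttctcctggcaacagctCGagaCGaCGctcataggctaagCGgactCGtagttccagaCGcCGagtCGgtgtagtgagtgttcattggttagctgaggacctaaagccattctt
Kdm5b (chr1:134559928-134560170, plus strand): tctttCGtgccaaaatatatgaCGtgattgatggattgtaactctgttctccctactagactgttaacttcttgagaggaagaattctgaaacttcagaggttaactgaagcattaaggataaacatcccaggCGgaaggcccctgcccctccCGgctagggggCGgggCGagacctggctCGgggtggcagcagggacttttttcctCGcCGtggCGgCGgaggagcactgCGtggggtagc
Kmt2a (chr9:44881297-44881539, minus strand): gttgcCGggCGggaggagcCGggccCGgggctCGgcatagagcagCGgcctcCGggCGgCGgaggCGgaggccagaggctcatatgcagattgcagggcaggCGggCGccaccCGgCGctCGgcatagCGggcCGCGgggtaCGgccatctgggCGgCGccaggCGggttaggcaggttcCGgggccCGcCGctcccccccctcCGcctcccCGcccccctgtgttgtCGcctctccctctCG
Smyd2 (chr1:189922364-189922541, minus strand): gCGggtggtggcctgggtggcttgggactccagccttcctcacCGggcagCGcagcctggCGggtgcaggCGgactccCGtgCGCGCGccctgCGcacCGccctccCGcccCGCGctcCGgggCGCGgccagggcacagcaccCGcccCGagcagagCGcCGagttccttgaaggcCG
The Kmt2a stretch held 29 CG pairs and 4 GC boxes in 243 bases and the Smyd2 stretch 22 and 3 in 178. The Kdm4a stretch held 12 CG pairs and 0 GC boxes in 250 bases, and the Kdm5b stretch 12 and 1 in 243. Stretches dense in CG pairs were thus found upstream of Kmt2a, which was lower, and of Smyd2, which was higher.

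In dorsal hippocampus at rest, levels per kilobase of exon were highest for Ehmt2 (G9a, which writes H3K9 dimethylation), at 35.3 ± 3.00 CPM per kb (SD, n = 5 WT home cage libraries). Next came Prdm8, a neural repressor of the PRDM family, at 24.9 ± 4.58 CPM per kb, Smyd2, a methyltransferase of p53 and histones, at 24.0 ± 1.50, Setd3, the actin histidine methyltransferase, at 22.0 ± 0.652, and Setd7, which monomethylates H3K4, at 20.7 ± 0.705. The 5 lowest were Setd4 at 0.830 ± 0.181 CPM per kb, the meiotic recombination factor Prdm9 at 0.297 ± 0.109, the heart and muscle gene Smyd1 at 0.291 ± 0.120, the demethylase Kdm4d at 0.238 ± 0.0322 and Prdm11 at 0.150 ± 0.0501. Of the 56 neighbouring pairs in this order, 3 were separated with no overlap of their 5 libraries: Ehmt2 above Prdm8, Setd7 above Kdm4b, and Setd4 above Prdm9. The H3K27 writers were uneven, with Ezh1, the form of non-dividing cells, at 12.7 ± 1.16 CPM per kb and Ezh2, the form of dividing cells, at 0.899 ± 0.172.

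Whole and dorsal WT home cage libraries were normalized separately and differ in dissection and batch, so their CPM are given side by side without a test. The ratio of whole to dorsal mean CPM had a median of 1.23 and was above 1 for 47 of the 57. It was highest for Setd4 (11.4 against 4.47 CPM, a ratio of 2.55) and the H4K20 writer Kmt5c (18.9 against 7.79 CPM, 2.43), and lowest for Prdm8 (79.9 against 121 CPM, 0.66).

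The clearest difference lay between KO and WT after fear conditioning. Of the 57 genes, 22 were lower in KO fear than in WT fear and 1, Smyd2, was higher (edgeR quasi-likelihood test, adjusted p under 0.05 over all 14808 genes). That is 38.6% lower against 12.1% of all genes tested, and 1 gene higher where 10.2% of all genes were. In either direction the share is 40.4% against 22.3%. The median log2 difference was -0.32, against 0.014 over all genes, and 46 of the 57 lay below 0. In 19 of the 57 (33.3%) every KO fear library was below every WT fear library, against 10.6% of all genes. In 0 was every KO fear library above every WT fear library, and the share of all genes in that direction was not computed. Methyltransferases had 14 of 26 lower and demethylases 6 of 15. With each enzyme counted under a single mark, 6 of 9 H3K4 writers and 1 of 4 H3K4 erasers were lower. For H3K9 these were 3 of 6 and 2 of 7. For H3K36 they were 4 of 5 and 2 of 3, and for H3K27 0 of 2 and 1 of 1. Kdm4a and Kdm7a, which each act on a further mark, were counted under H3K9 only. The H3K4 writers include Kmt2e, a reader-like relative. In bulk tissue, fewer cells of a type and less RNA per cell cannot be told apart.

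**Figure D1:**
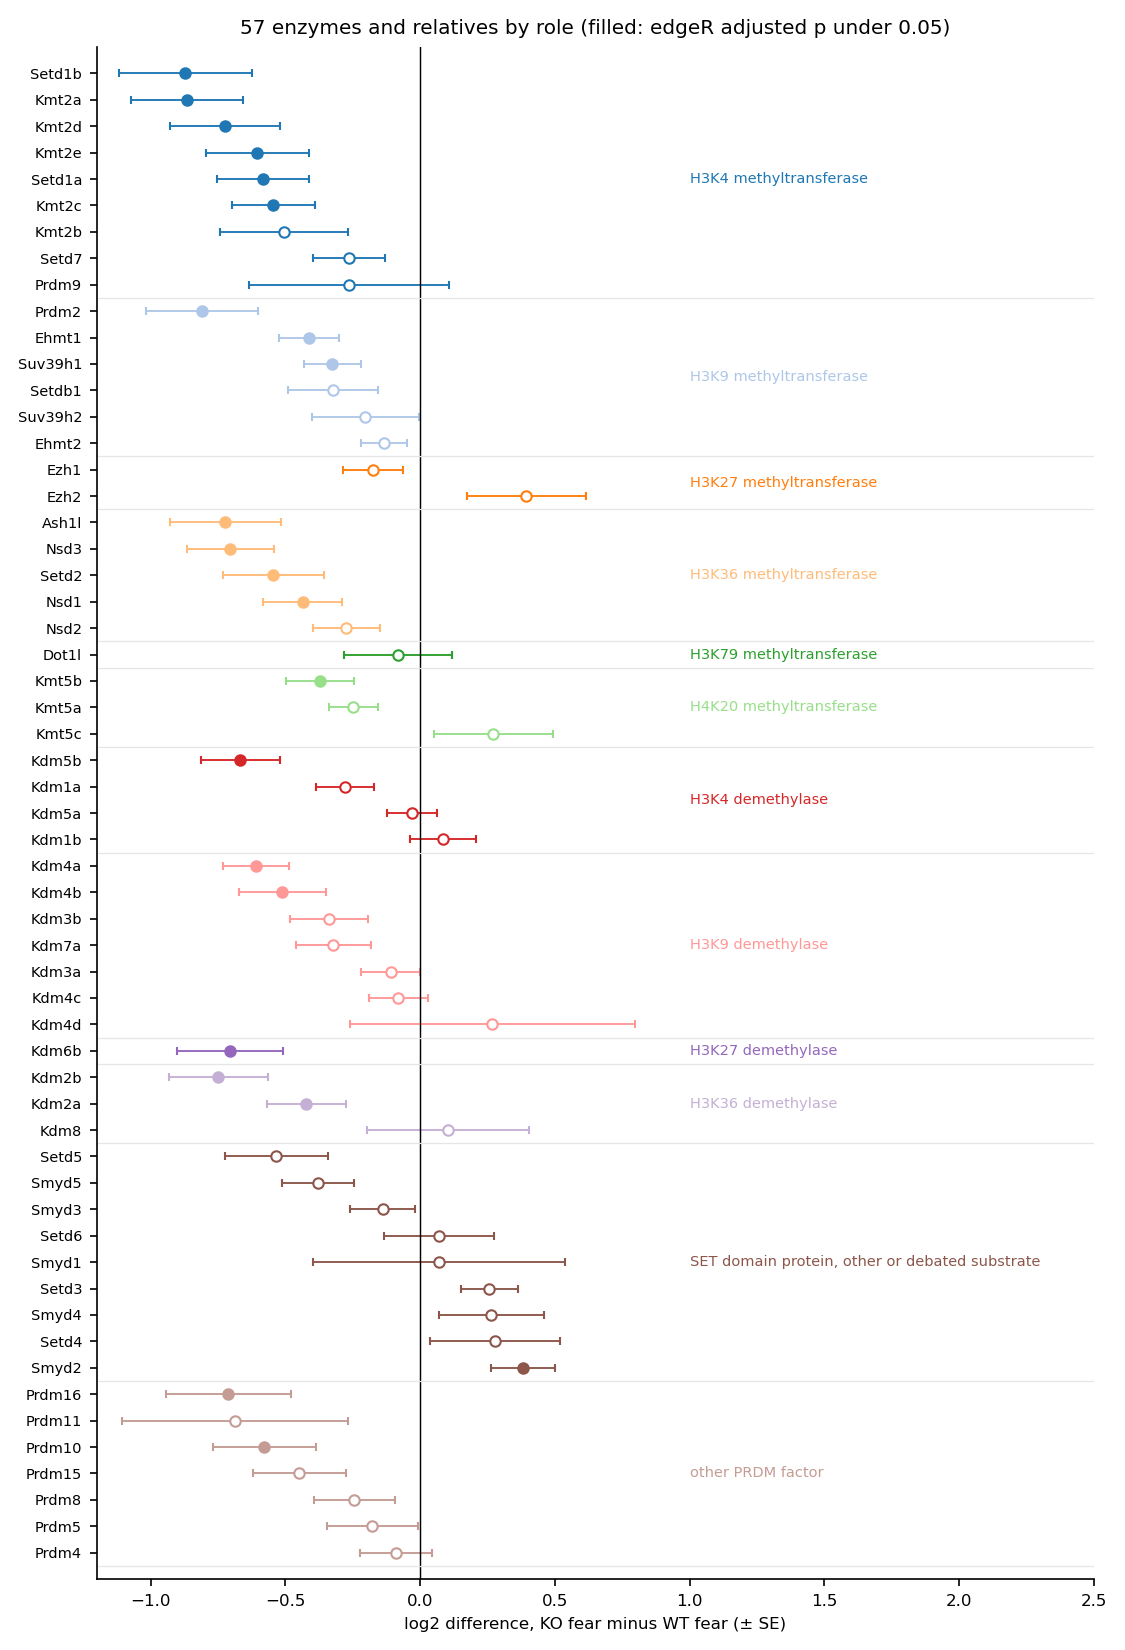
Log2 difference between KO fear (n = 4) and WT fear (n = 3) dorsal hippocampus for each of the 57 genes, grouped by role, with the approximate standard error; filled points passed the edgeR test at an adjusted p under 0.05. Of the points, 46 lie left of 0, and the only filled point right of 0 is Smyd2 at 0.38.

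The writers of H3K4 methylation held the 2 lowest fitted differences of the set: 6 of 9 were lower and all 9 lay below 0, with a median of -0.58. Kmt2a, a catalytic subunit of the COMPASS-like complexes, held 139.7, 215 and 222 CPM in the 3 WT fear libraries and 97.8, 106, 94.3 and 117 in the 4 KO fear libraries. WT fear 1 was the lowest of its group and still above every KO fear library. The log2 difference was -0.86 ± 0.21 (adjusted p = 0.017). Setd1b, which with Setd1a writes most H3K4 trimethylation at promoters, held 32.6, 51.1 and 48.6 CPM in WT fear and 26.9, 19.1, 21.7 and 25.1 in KO fear. Its groups did not overlap either, and the log2 difference was -0.87 ± 0.25 (adjusted p = 0.0239). Kmt2d and Kmt2c monomethylate H3K4 at enhancers. Kmt2d stood at 111, 162 and 166 CPM in WT fear and 80.9, 97.8, 59.8 and 64.8 in KO fear, and Kmt2c at 115, 143 and 167 and 102, 90.7, 75.6 and 82.5. In both, WT fear 1 came closest to the KO libraries without reaching them, and the log2 differences were -0.72 ± 0.20 (adjusted p = 0.0239) and -0.55 ± 0.15 (adjusted p = 0.0239). Kmt2e, a reader-like relative that is counted among the 9 writers and the 6 lower, differed by -0.60 ± 0.19 (adjusted p = 0.035). Setd1a differed by -0.58 ± 0.17 (adjusted p = 0.0271). Of the exonic bases of Setd1a, 52.3% are shared with Gm49388 on its own strand and 9430064I24Rik on the other, and 9.31% of those of Kmt2e with Srpk2 on the opposite strand, so in libraries without strand their counts can include reads of those genes. Kmt2b, Setd7 and Prdm9 did not pass, at -0.50 ± 0.24, -0.26 ± 0.13 and -0.26 ± 0.37.

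Of the H3K36 writers 4 of 5 were lower. Nsd3 held 102, 118 and 138 CPM in WT fear and 74.2, 66.8, 74.9 and 92.4 in KO fear, a log2 difference of -0.70 ± 0.16 (adjusted p = 0.0155), with no overlap. Ash1l, a trithorax enzyme, held 238, 261 and 325 CPM against 192, 128, 166 and 190.0, a difference of -0.72 ± 0.21 (adjusted p = 0.0248), again with no overlap. Setd2, the main enzyme for H3K36 trimethylation, differed by -0.54 ± 0.19 (adjusted p = 0.0479) and Nsd1 by -0.44 ± 0.15 (adjusted p = 0.0432). Nsd2 was below 0 at -0.27 ± 0.12 and did not pass (adjusted p = 0.113).

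Among the H3K9 writers 3 of 6 were lower and all 6 lay below 0. Prdm2 (RIZ1) held 64.6, 87.7 and 105 CPM in WT fear and 52.6, 39.6, 54.9 and 66.5 in KO fear, where KO fear 4 exceeded WT fear 1. Its log2 difference was -0.81 ± 0.21 (adjusted p = 0.0189). Ehmt1 (GLP), the partner of Ehmt2, held 42.9, 45.5 and 46.6 CPM against 33.5, 34.1, 31.0 and 32.3, which did not overlap and differed by -0.41 ± 0.11 (adjusted p = 0.021). Suv39h1, which adds trimethyl marks on H3K9 in pericentric heterochromatin and is the 1 X-linked gene of the set, differed by -0.32 ± 0.11 (adjusted p = 0.0385). It passed in only 2 of 9 other settings of the processing. Of the exonic bases of Suv39h1, 14.6% are shared with Gm14820 on the opposite strand. Ehmt2 itself, the gene with the highest level per length, stood at 198, 208 and 209 CPM in WT fear and 188, 193, 204 and 202 in KO fear. These values overlapped, and the difference of -0.13 ± 0.08 did not pass (adjusted p = 0.249). Whether Ehmt1 and Ehmt2 differ in their response was not tested.

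Of the 6 remaining writers 1 was lower. Kmt5b, which dimethylates H4K20, was lower at -0.37 ± 0.13 (adjusted p = 0.0432). The monomethylase Kmt5a, at -0.25 ± 0.09, did not pass (adjusted p = 0.0559), although its 3 WT fear libraries, at 46.7, 44.3 and 47.5 CPM, all exceeded the 4 KO fear libraries, at 38.4, 40.2, 40.4 and 41.9. Kmt5c stood at 0.27 ± 0.22. The H3K27 writers Ezh1 and Ezh2 stood at -0.17 ± 0.11 and 0.39 ± 0.22 and the H3K79 writer Dot1l at -0.08 ± 0.20, with adjusted p from 0.196 to 0.792.

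The erasers showed the same direction, with 6 of 15 lower and 12 below 0. Kdm4a, which removes methyl groups from H3K9 and H3K36, had the smallest p of the set. It held 69.5, 68.6 and 68.9 CPM in the WT fear libraries and 42.5, 45.4, 51.7 and 57.9 in the KO fear libraries. The WT fear values lay close together, no library of one group reached the other, and the log2 difference was -0.61 ± 0.12 (adjusted p = 0.0155). Kdm5b, an H3K4 demethylase, held 77.8, 98.0 and 99.9 CPM against 54.9, 58.9, 63.1 and 67.0 and differed by -0.67 ± 0.15 (adjusted p = 0.0155). Kdm2b, which binds unmethylated CG islands and removes H3K36 methylation, held 21.1, 24.2 and 26.4 CPM against 14.6, 12.4, 15.97 and 21.01 and differed by -0.75 ± 0.18 (adjusted p = 0.0178). Both sets of values were separated, for Kdm2b only narrowly between WT fear 1 and KO fear 4. Kdm6b, the H3K27 demethylase inducible by neuronal activity, held 29.2, 39.4 and 41.3 CPM against 23.9, 20.6, 15.9 and 21.4, also separated, and differed by -0.70 ± 0.20 (adjusted p = 0.0234). Kdm4b and Kdm2a were lower too, at -0.51 ± 0.16 (adjusted p = 0.0338) and -0.42 ± 0.15 (adjusted p = 0.048). Kdm7a, at -0.32 ± 0.14, did not pass, nor did the other H3K4 demethylases: Kdm1a (LSD1) stood at -0.28 ± 0.11, Kdm5a at -0.03 ± 0.09 and Kdm1b at 0.09 ± 0.12. Kdm8 and Kdm4d stood at 0.10 ± 0.30 and 0.27 ± 0.53, the latter with 1 to 25 counts per dorsal library.

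Of the 9 SET domain proteins with other or debated substrates 0 were lower and 1 higher, with a median of 0.071, and whether they differ from the other roles was not tested. Smyd2 held 60.8, 53.2 and 46.0 CPM in WT fear and 69.8, 72.5, 55.9 and 59.3 in KO fear, and was higher by 0.38 ± 0.12 (adjusted p = 0.0325). The groups overlapped, since WT fear 1 exceeded KO fear 3 and 4. Of its exonic bases, 30.0% are shared with Gm37422 on the opposite strand. Setd5 and Smyd5 lay below 0, at -0.53 ± 0.19 and -0.38 ± 0.13, with adjusted p of 0.0545 and 0.0511. Setd3, Setd4 and Smyd1 stood at 0.26 ± 0.11, 0.28 ± 0.24 and 0.07 ± 0.47, none of which passed. Of the other PRDM factors, Prdm16, known from brown fat and neural progenitors, and Prdm10 were lower, at -0.71 ± 0.23 (adjusted p = 0.0391) and -0.58 ± 0.19 (adjusted p = 0.0415). Prdm8 and Prdm11 stood at -0.24 ± 0.15 and -0.69 ± 0.42 and did not pass.

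**Figure D2:**
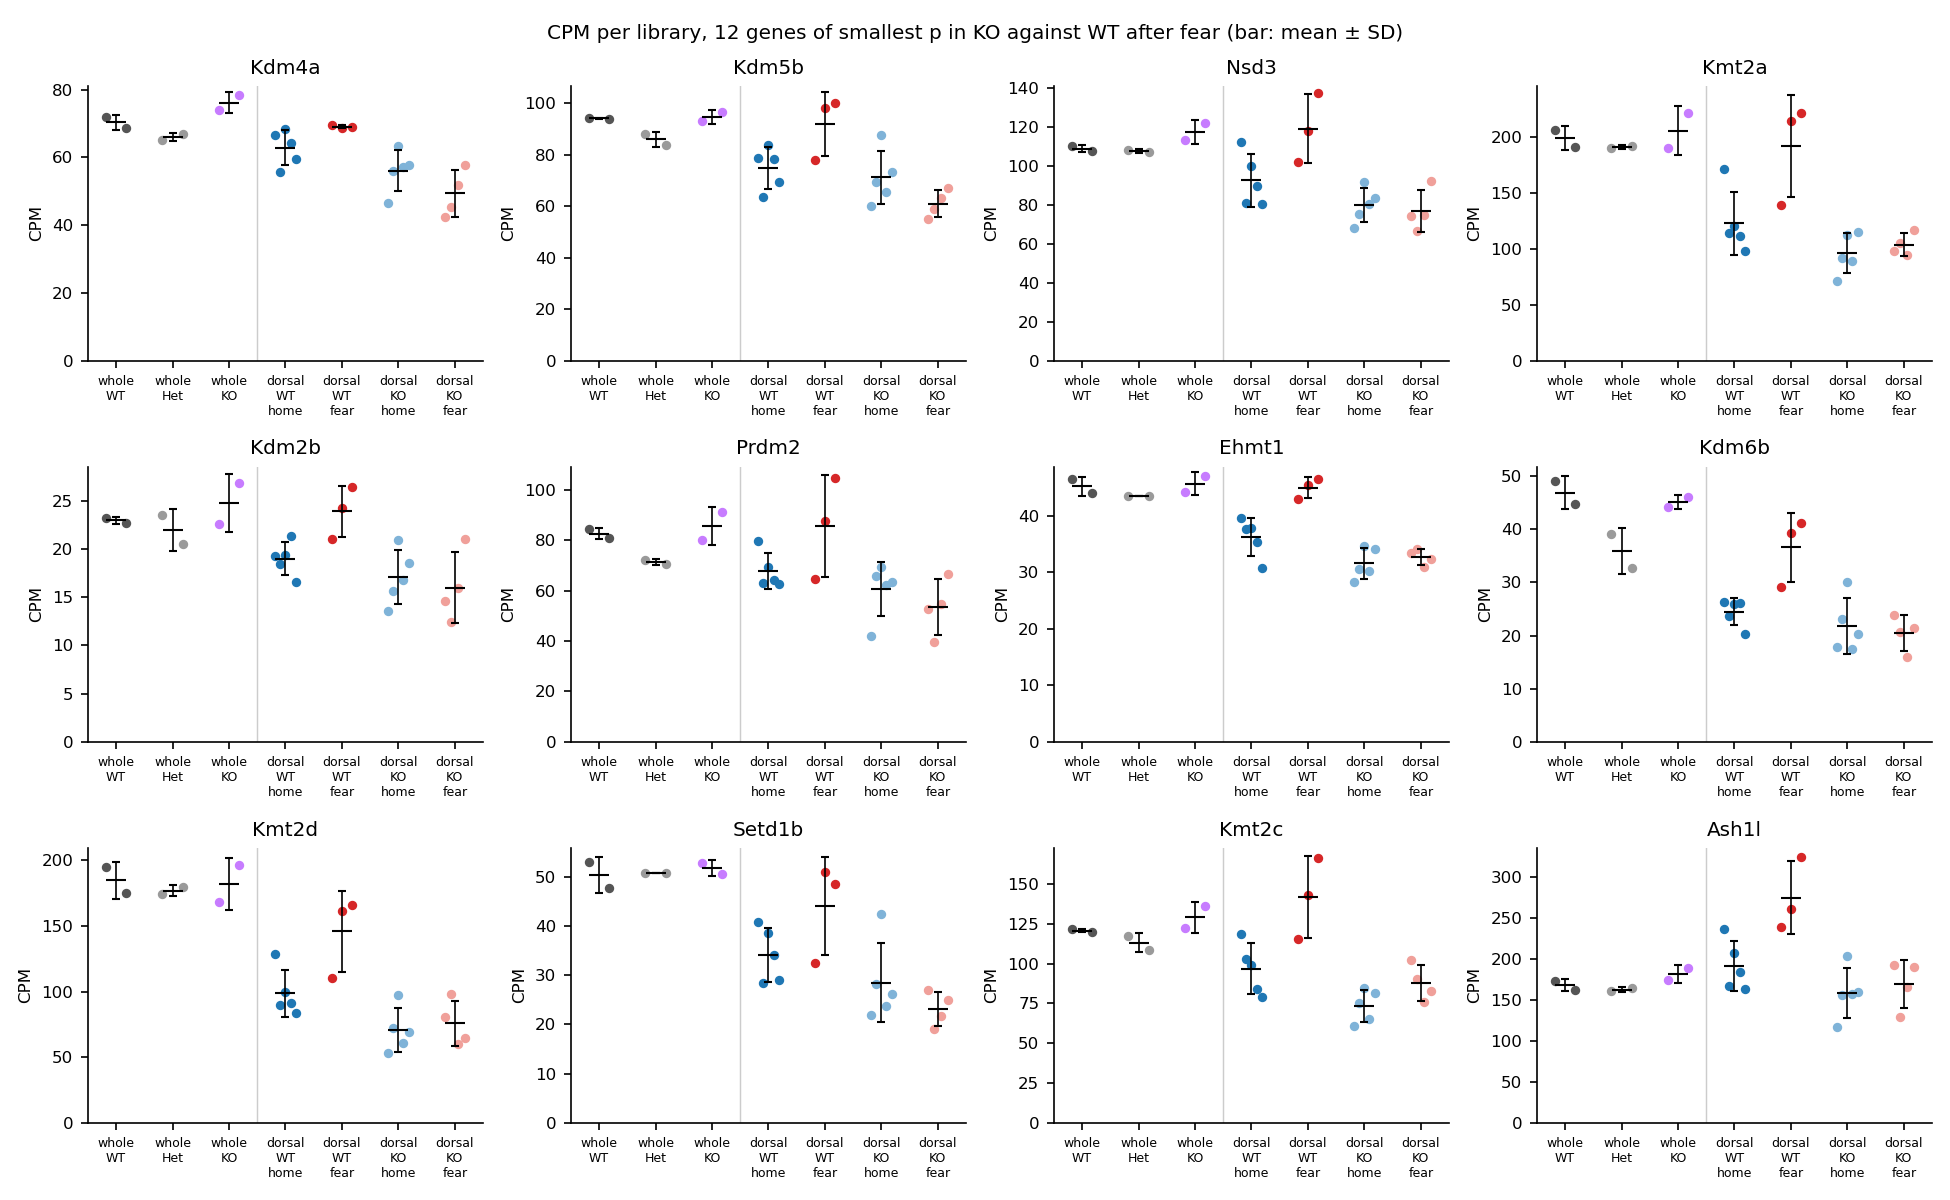
CPM in each of the 23 libraries for the 12 genes with the smallest p between KO and WT after fear; bars give the mean ± SD of each group, and the whole and dorsal experiments were normalized separately. Kdm4a has WT fear values of 69.5, 68.6 and 68.9 CPM, above all 4 KO fear libraries.

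The count of lower genes rested on few libraries. It was 0 when WT fear 2, WT fear 3 or KO fear 2 was left out, and then 1 or 2 of all genes tested passed. The direction held in each of these fits, with medians of -0.31, -0.29 and -0.28. Over all 17 fits with a library left out, 45 to 50 of the 57 lay below 0. Without KO fear 1, 14 were lower and 0 higher, and 13.9% of all genes passed. Without KO fear 3, 13 were lower and 1 higher, and 16.1% of all genes passed. Within batch B1 alone, where WT fear 1 to 3 meet KO fear 1 and 2, 15 of 56 genes passed, all lower, against 8.84% of all genes lower, with a median of -0.36. The log2 differences there were -0.91 for Kmt2a (edgeR adjusted p = 0.0139), -0.64 for Kdm4a (adjusted p = 0.0167) and 0.43 for Smyd2 (adjusted p = 0.0776).

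Exonic length moved with the difference. The 57 genes are long, with a median of 8116 exonic bases against 4452.5 over all genes tested. Over the 57, Spearman's rho between length and the log2 difference of KO against WT after fear was -0.64, and over all genes -0.43, as a description across genes, which share libraries and are not independent. Among genes over 8000 bases, 25.7% of all genes and 16 of 29 of the set (55.2%) were lower. Between 4000 and 8000 bases these shares were 14.3% and 6 of 24, and at up to 4000 bases the set had 4 genes, 0 of them lower. When libraries were scaled within bins of similar length, an alternative chosen after seeing the data, 11 of the set passed, all lower (19.3%), against 10.9% of all genes lower, and the median was -0.19. The 11 were Kdm4a, Kdm5b, Nsd3, Kmt2a, Kdm2b, Prdm2, Kdm6b, Setd1b, Ash1l, Setd1a and Kdm4b, all of which had passed before.

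**Figure D3:**
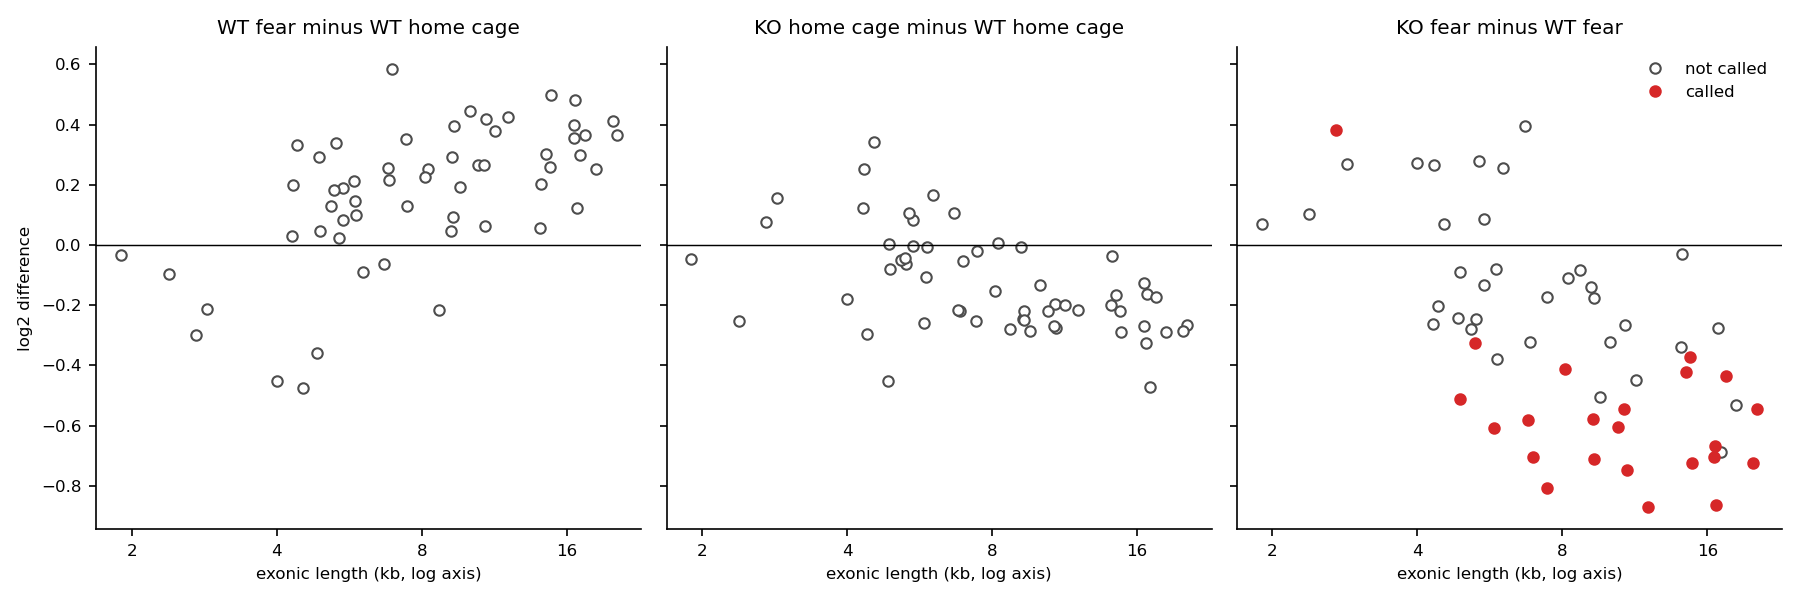
Log2 difference of each of the 57 genes against its exonic length (log axis, kb) in 3 dorsal comparisons; red points passed the edgeR test. Longer genes lie lower in KO against WT after fear (rho = -0.64) and in KO against WT home cage (rho = -0.52), and higher in WT fear against WT home cage (rho = 0.63); comparisons on neighbouring panels share libraries.

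Markers of other cells and regions moved with the same comparison. Oligodendrocyte markers summed to 4144 to 5524 CPM in the WT fear libraries and 6982 to 10900 in the KO fear libraries, with 10 of 15 higher in KO and 0 lower. Ependymal markers summed to 13.4 to 17.3 CPM against 37.2 to 93.3 (8 of 10 higher), and choroid plexus markers to 49.1 to 149 against 104 to 529 (7 of 10 higher). CA1 pyramidal neuron markers summed to 748 to 1254 CPM against 470 to 1079 (7 of 10 lower, 1 higher), and those of CA2 and CA3 to 764 to 1020 against 1094 to 1317 (5 of 14 higher). The CA1 sums in KO fear split by batch, at 470 and 471 CPM in B1 and 985 and 1079 in B3. Those of B3 lay within the WT fear range. Markers of dentate granule cells were 2 of 10 lower, inhibitory neurons 2 of 10 higher and 1 lower, astrocytes 2 of 10 higher, microglia 1 of 10 higher and endothelium 0 of 10 changed. Of 9 tested neocortex markers 1 was higher and 3 lower, and of 10 thalamus markers 1 was higher. None of these markers was at 0 in every dorsal library, whereas 4 of 7 blood markers, all haemoglobin genes, were. The part of these markers in the lower levels of the methylation enzymes was not tested.

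**Figure D4:**
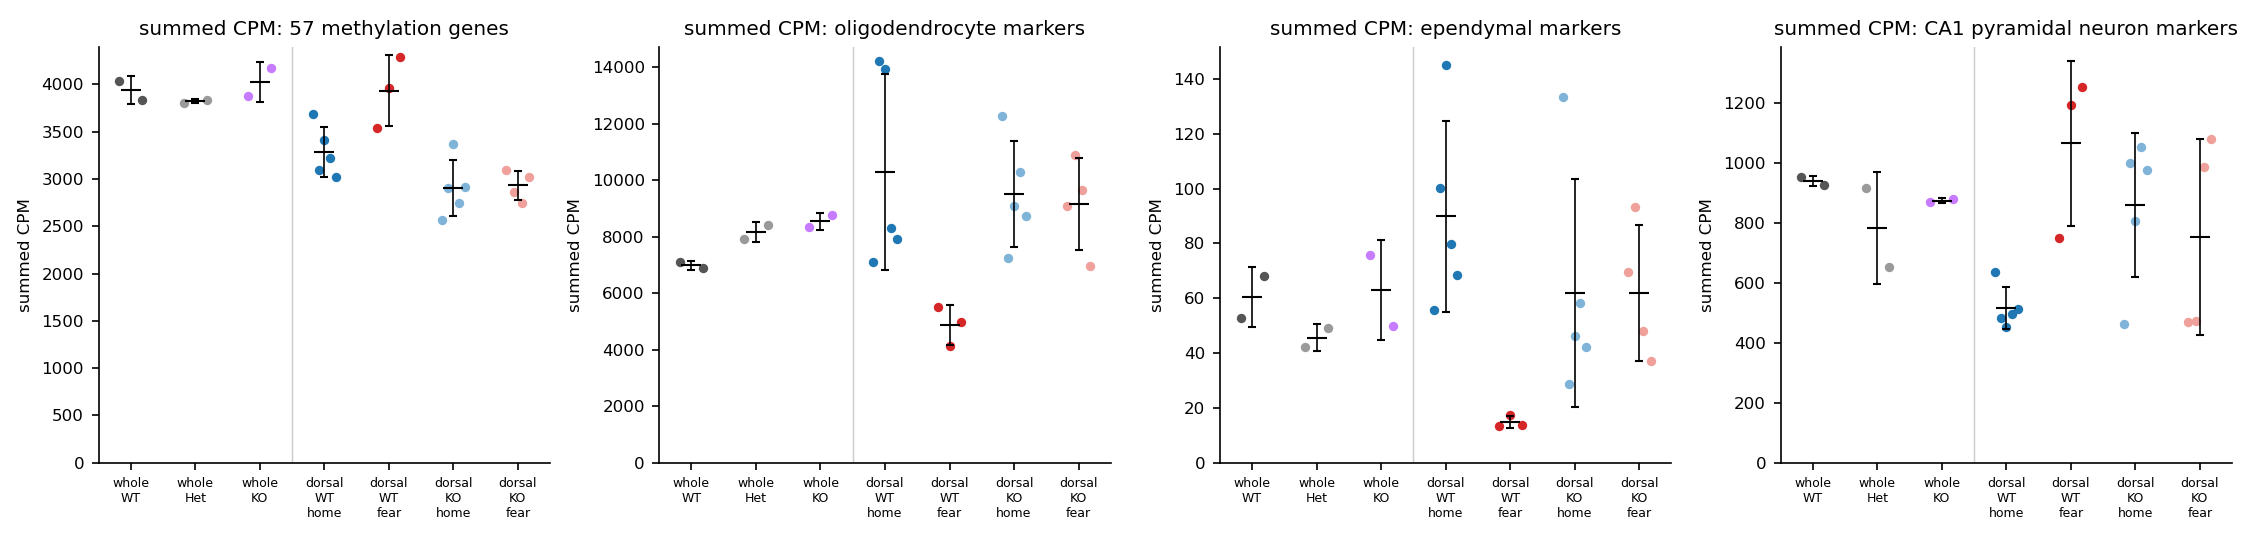
Summed CPM per library of the 57 methylation genes and of 3 marker lists, by group, with the mean ± SD as bars. The 3 WT fear libraries are at 3540 to 4290 for the methylation genes, above the 4 KO fear libraries at 2747 to 3094, and at 4144 to 5524 for oligodendrocyte markers, below all other groups.

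Fear conditioning in WT mice shows how these transcripts stood 30 min after the shock with Acss2 intact. None of the 57 passed the edgeR test, against 1.63% of all genes, while 16 (28.1%, against 20.8% of all genes) had an unadjusted p under 0.05, 14 above 0 and 2 below, and 47 of the 57 lay above 0. The median log2 difference was 0.21, against -0.019 over all genes. DESeq2 and limma-voom each called 2 (3.51%), against 6.01% and 5.39% of all genes. Closest to the threshold was Kmt5a, at 0.34 ± 0.09 (adjusted p = 0.0621), with 35.0, 37.0, 45.2, 43.7 and 41.9 CPM in the 5 WT home cage libraries and 46.7, 44.3 and 47.5 in the 3 WT fear libraries. The home cage libraries of B1, the first and second, were the lowest, and WT fear 2 fell below WT home cage 3. Next were Kdm7a, an H3K9 and H3K27 demethylase, at 0.44 ± 0.14 (adjusted p = 0.0952), and Kdm6b, at 0.58 ± 0.19 (adjusted p = 0.111). Kdm6b held 26.3, 23.6, 26.0, 26.2 and 20.4 CPM in WT home cage and 29.2, 39.4 and 41.3 in WT fear, without overlap. Kdm7a held 108, 85.7, 84.8, 80.9 and 90.7 and 139, 101 and 158 CPM, which overlapped at WT fear 2. Without WT fear 1 the edgeR test called 4 of the set and 5.24% of all genes. Without KO home cage 1 or 3, which enter through the shared batch term, it called 1 of the set, and 4.44% and 2.69% of all genes. Within B1 alone, with WT home cage 1 and 2 against WT fear 1 to 3, the median was 0.21 and 0 of 56 passed. With scaling within length bins the median was 0.14. Oligodendrocyte markers, at 7115 to 14220 summed CPM in WT home cage, were 10 of 15 lower in WT fear, and CA1 markers, at 453 to 636, were 5 of 10 higher. Ependymal markers, at 55.6 to 145, were 6 of 10 lower, with a median log2 difference of -3.62, and CA2 and CA3 markers 3 of 14 lower. Their part in these values was not tested.

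Within each role the fitted WT fear differences spread as follows. For H3K4 writers they ran from 0.03 ± 0.36 (Prdm9) to 0.48 ± 0.20 (Kmt2a), for H3K9 writers from 0.18 ± 0.10 (Suv39h1) to 0.35 ± 0.20 (Prdm2), and for H3K36 writers from 0.12 ± 0.12 (Nsd2) to 0.50 ± 0.20 (Ash1l). Ezh2 stood at -0.06 ± 0.22 and Ezh1 at 0.13 ± 0.11, Dot1l at -0.22 ± 0.20, and H4K20 writers ran from -0.45 ± 0.22 (Kmt5c) up to Kmt5a. Among the erasers the H3K4 enzymes ran from 0.08 ± 0.12 (Kdm1b) to 0.40 ± 0.15 (Kdm5b), the H3K9 enzymes from -0.21 ± 0.52 (Kdm4d) up to Kdm7a, and the H3K36 enzymes from -0.10 ± 0.29 (Kdm8) to 0.42 ± 0.18 (Kdm2b). The other SET proteins ran from -0.48 ± 0.44 (Smyd1) to 0.25 ± 0.19 (Setd5), and the other PRDM factors from -0.36 ± 0.14 (Prdm8) to 0.40 ± 0.23 (Prdm16). None of these passed, and Smyd1, Kdm4d and Prdm9 rest on few counts.

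In KO mice the same contrast gave a median of -0.0097, with 27 of the 57 above 0 and 30 below, and from -0.053 (without KO fear 4) to 0.055 (without WT home cage 1) with a library left out. None passed the edgeR test, as none of all genes did (0%), and 4 (7.02%, against 4.82%) had an unadjusted p under 0.05. DESeq2 and limma-voom called 0. Within B3, the 1 batch with both KO groups, the median was 0.014. The smallest p belonged to Suv39h2 at 0.43 ± 0.17, Kdm5a at 0.21 ± 0.08 and Smyd5 at -0.27 ± 0.11, each with an adjusted p = 0.968. Kmt5a stood at 0.15 ± 0.08 and Kdm6b at -0.07 ± 0.18.

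The interaction, the KO response minus the WT response, tests whether the 2 genotypes differ in their response to conditioning. None of the 57 passed, against 0.479% of all genes, with 13 (22.8%, against 21.9% of all genes) at an unadjusted p under 0.05, 12 below 0 and 1 above, and 1 call each (1.75%) by DESeq2 and limma-voom, against 6.03% and 3.63% of all genes. The median was -0.22, against 0.034 over all genes. Kdm5b came closest at -0.54 ± 0.17 (adjusted p = 0.0973), followed by Kdm6b at -0.65 ± 0.22 (adjusted p = 0.121) and Kdm4b at -0.51 ± 0.18 (adjusted p = 0.127). Kdm5b held 78.8, 63.4, 83.6, 78.4 and 69.2 CPM in WT home cage and 77.8, 98.0 and 99.9 in WT fear, and 60.1, 69.2, 87.6, 65.6 and 73.3 in KO home cage and 54.9, 58.9, 63.1 and 67.0 in KO fear. Its WT fear libraries 2 and 3 were the highest of the 17 and KO fear 1 the lowest. Kdm4b held 74.7, 60.4, 77.4, 79.9 and 69.5 CPM in WT home cage and 74.7, 71.5 and 97.3 in WT fear. In KO it held 59.9, 79.9, 92.7, 81.2 and 83.0 CPM in the home cage and 52.6, 59.3, 67.8 and 77.8 after fear, with WT fear 3 the highest of the 17 and KO fear 1 the lowest. The edgeR test called 3 of the 57 without KO home cage 1, 2 without WT fear 1, and 1 without WT home cage 1, where it called 6.06%, 6.66% and 4.45% of all genes. No single batch holds all 4 groups. These comparisons share the WT fear and KO fear libraries with the one between genotypes after fear.

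**Figure D5:**
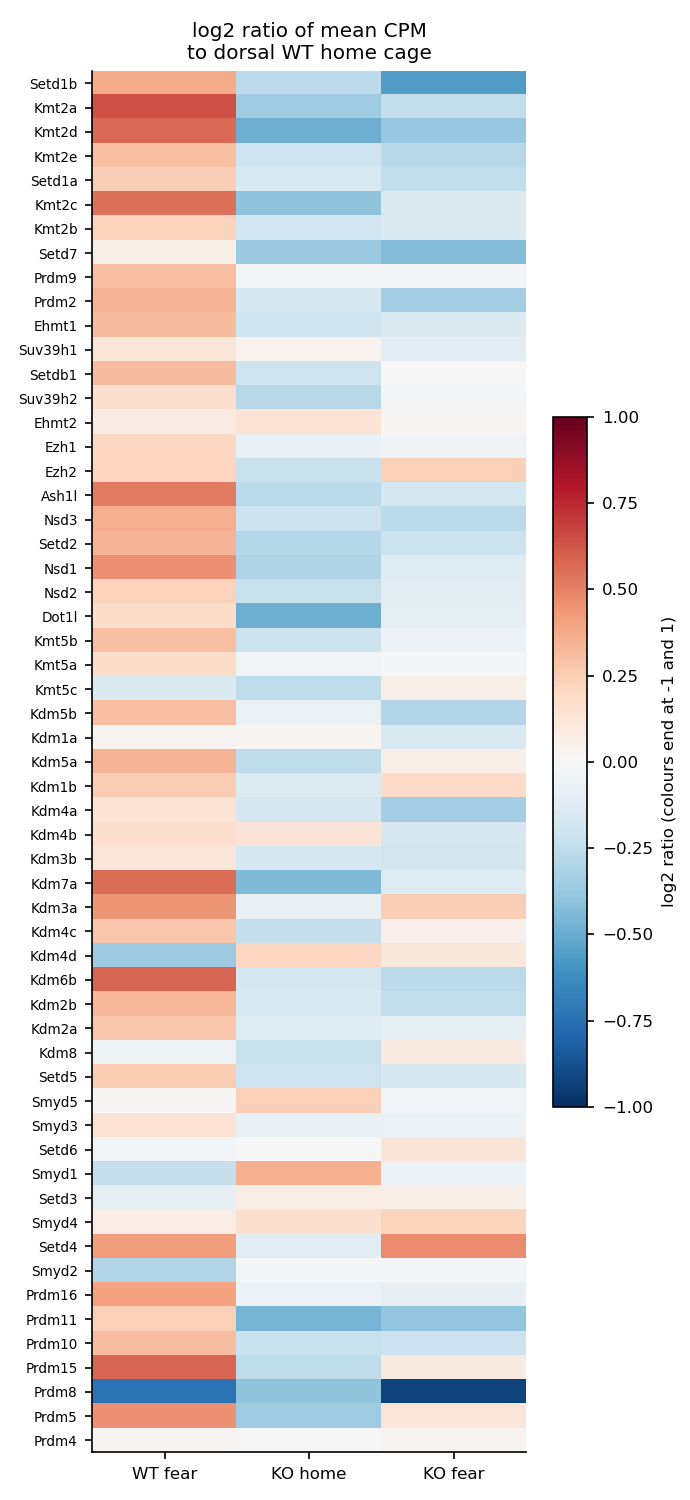
Log2 ratio of mean CPM to dorsal WT home cage (n = 5) for WT fear (n = 3), KO home cage (n = 5) and KO fear (n = 4), for each of the 57 genes in the order of the role plot; no batch term enters these ratios. Kdm6b is at 0.58 in WT fear, -0.17 in KO home cage and -0.26 in KO fear, and Prdm8 is at -0.74, -0.40 and -0.92.

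Between KO and WT in the home cage the 57 also lay mostly below 0, 46 of them, with a median of -0.17 against -0.019 over all genes. None passed the edgeR test, against 0.00675% of all genes (1 gene). The count at an unadjusted p under 0.05 was 5 (8.77%, against 11.3%), all below 0, and DESeq2 and limma-voom called 0. Prdm8 had the smallest p, at -0.45 ± 0.12 (adjusted p = 0.44), with 104, 91.6, 144, 135 and 132 CPM in WT and 94.1, 90.2, 135, 67.2 and 72.6 in KO. In WT the B2 libraries (3 to 5) were above those of B1, in KO the B2 libraries (1 to 3) were above those of B3, and the genotypes overlapped. Of its exonic bases, 29.1% are shared with A730035I17Rik on the opposite strand. Kdm4a stood at -0.26 ± 0.10 and Kmt5b at -0.22 ± 0.10, both with an adjusted p = 0.44. Over the 57, rho between exonic length and the difference was -0.52, against -0.47 over all genes, and with scaling within length bins the median was -0.049. Within B2, the 1 batch with both genotypes at rest, the median was -0.13. Without KO home cage 3 the test called 3 of the 57 and 3.96% of all genes. Cell markers lay apart in this comparison too, although none passed: all 10 dentate granule markers were below 0 (median -0.38, summed 513.6 to 733.8 CPM in KO against 707.5 to 1115 in WT), as were all 10 ependymal markers (median -0.54). Of the endothelial markers 9 of 10 were below 0 (median -0.49), and of the CA1 markers 9 of 10 above (median 0.43). Their part in the lower values of the 57 was not tested.

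In whole hippocampus at rest the 57 were close between KO and WT. KO against WT gave a median of 0.021 with 37 above 0, which ran from -0.019 (without KO 2) to 0.072 (without KO 1) with a library left out. None passed by edgeR, against 0.0388% of all genes, and 1 (1.75%, against 6.09%) had an unadjusted p under 0.05. Over the 57, rho between exonic length and the difference was 0.48, against 0.17 over all genes, the opposite sign to the dorsal comparisons of KO with WT. Choroid plexus markers summed to 37.6 and 2623 CPM in the WT libraries and 4156 and 34.9 in the KO libraries, and their part in these values was not tested. Kdm5a, Ehmt2 and Kdm4a had the smallest p, at 0.12 ± 0.05, -0.13 ± 0.06 and 0.11 ± 0.06, each with an adjusted p = 0.802. Kmt2a held 206 and 191 CPM in WT, 190.1 and 192 in Het and 191 and 221 in KO, and Kdm4a 71.9 and 68.8, 65.2 and 67.0 and 73.9 and 78.3. In Kmt2a the KO values enclosed those of WT, while in Kdm4a both KO libraries were above both WT libraries.

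Het was compared with both other genotypes. The median log2 level of the 57 in a library had a pooled SD between replicates of 0.071. That is a spread of levels, not of median differences between groups. Against WT the median was -0.057, with 40 of 57 below 0, none passed by edgeR (0% of all genes too), and 6 (10.5%, against 13.9%) had an unadjusted p under 0.05. Kdm6b was at -0.39 ± 0.10 (adjusted p = 0.261), with 49.1 and 44.7 CPM in WT, 39.0 and 32.8 in Het and 44.2 and 46.1 in KO, and both Het libraries were below the others. In Het 2 the summed markers lay apart from the other 5 libraries: CA1 at 652 CPM against 868 to 951, dentate granule cells at 460 against 598 to 691, and neocortex at 641 against 399 to 447. Their part in the Het values was not tested. Prdm8 was at -0.40 ± 0.13 and Prdm2 at -0.21 ± 0.07. KO against Het gave a median of 0.075, with 42 of 57 above 0, and none passed by edgeR, against 0.0841% of all genes. An unadjusted p under 0.05 was reached by 12 (21.1%, against 13.2%), 9 above 0 and 3 below. Kdm5d separates these groups too, so sex and genotype cannot be told apart in KO against Het. Prdm2, Kdm4a and Kdm7a were at 0.26 ± 0.07, 0.20 ± 0.06 and 0.34 ± 0.10. DESeq2 and limma-voom called 0 of the 57 in each of the 3 whole hippocampus comparisons. Without Het 1 the edgeR test called 3 of the 57 against WT, where it called 1424 of 15814 genes, and 4 against KO, where it called 1211.

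Subunits and partners that work with these enzymes were listed in 7 groups. Of 84 tested in the dorsal experiment, 18 (21.4%) were lower in KO fear than in WT fear and 0 higher, against 12.1% and 10.2% of all genes. In either direction the share of partners is 21.4%, close to the 22.3% of all genes. Among H3K4 complex subunits 5 of 15 were lower: Hcfc1, which tethers the Setd1 complexes, at -0.76 ± 0.18 (adjusted p = 0.0162), Wdr82, their RNA polymerase link, at -0.43 ± 0.10 (adjusted p = 0.0162), Bod1l at -0.43 ± 0.11 (adjusted p = 0.0173), Ncoa6 at -0.76 ± 0.21 (adjusted p = 0.0236) and menin (Men1) at -0.53 ± 0.15 (adjusted p = 0.025). The core scaffold genes Wdr5, Ash2l, Rbbp5 and Dpy30 did not pass, at -0.22 ± 0.12, -0.12 ± 0.10, -0.13 ± 0.11 and 0.51 ± 0.19. Of 11 subunits of Polycomb repressive complex 2, the complex of Ezh1 and Ezh2, 3 were lower: Aebp2 at -0.38 ± 0.10 (adjusted p = 0.0204), Suz12 at -0.30 ± 0.10 (adjusted p = 0.0408) and Jarid2 at -0.50 ± 0.17 (adjusted p = 0.0455). Of 12 CoREST subunits, which work with Kdm1a, 3 were lower, among them the scaffold Rcor1 at -0.90 ± 0.26 (adjusted p = 0.0264) and Phf21a at -0.39 ± 0.12 (adjusted p = 0.0312).

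Of 13 tested partners and readers of H3K9 methylation, 3 were lower, among them Cdyl2 at -1.05 ± 0.22 (adjusted p = 0.0155) and Atf7ip, which stabilizes Setdb1, at -0.72 ± 0.24 (adjusted p = 0.0426). Aff3 and Aff4 of the 9 tested H3K79 partners were lower at -0.59 ± 0.19 (adjusted p = 0.035) and -0.54 ± 0.17 (adjusted p = 0.0365), and of 12 Jumonji and other methylation enzymes outside the name rule, Riox1 at -0.64 ± 0.13 (adjusted p = 0.0155) and Phf2 at -0.53 ± 0.18 (adjusted p = 0.0415). The 12 tested genes of S-adenosylmethionine supply, the donor pathway, had a median of -0.040 and none passed. In WT fear against WT home cage 4 partners were higher and 1 lower of 84, or 5.95%, against 1.63% of all genes. The Polycomb subunit Epop rose by 1.03 ± 0.18 (adjusted p = 0.0189), Riox1 by 0.67 ± 0.13 (adjusted p = 0.0263), Bod1l by 0.44 ± 0.11 (adjusted p = 0.0457) and Wdr82 by 0.42 ± 0.10 (adjusted p = 0.0481), and the corepressor demethylase Hr was lower at -0.88 ± 0.18 (adjusted p = 0.033). The interaction called Epop, at -0.996 ± 0.20 (adjusted p = 0.0437), and Riox1, at -0.66 ± 0.14 (adjusted p = 0.0475). These are 2.38% of the 84, against 0.479% of all genes. Both interaction calls are lost with the replicate block and without the batch term, where 0 of all genes passed. With a library left out, the interaction called 0 to 1007 of all genes and WT fear against WT home cage 6 to 829. The partners were not recomputed in those fits, but without WT fear 2, WT fear 3 or KO fear 2 at most 2 of all genes passed between KO and WT after fear.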

How the data were processed

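PolyA RNA of 23 mouse hippocampus libraries in 7 groups was sequenced with a kit that keeps no strand, per the labels, from 300 ng total RNA each. The deposited values are raw counts per gene symbol, in a table for each experiment. Their processing by the authors is known only from the tools listed, without role or order, in the submitters' processing notes: DESeq2, HTSeq 0.9.1, limma, SAMtools 1.1 and STAR, with the genome build mm10.

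From these counts, edgeR 4.0.16 in R 4.3.3 was run over all genes: filterByExpr (minimum count 10, minimum total 15), TMM scaling and the quasi-likelihood F test with Benjamini-Hochberg adjustment at 0.05. The dorsal fit held group and batch (11 residual degrees of freedom), the whole hippocampus fit group alone (3). Errors of log2 differences are approximate standard errors. The fits were tested on simulated counts with known changes. These counts held no batch effect and changes larger than any of the 57, so this checks the code and not these calls. DESeq2 1.42.0, limma 3.58.1 (voom), other scaling, filters, sample sets, a replicate block and leaving out each library served as alternatives. Replicate pairs differed beyond counting noise, which separate preparations of the same animal could do too. Each library was counted once.

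The genes and lists were chosen with earlier results of these data known. Genes are named if they passed in any comparison, had the 3 smallest p where none passed, had the 5 highest or lowest levels per length, or were the extremes of their role in WT fear against WT home cage. Per-library values go to at most 12 called genes by smallest p and to further genes chosen after their values were seen, as were the unpassed genes named between KO and WT after fear. Exonic lengths and overlaps come from GENCODE M21, which matched 98.2% and 98.1% of the symbols in the whole and dorsal tables. Dates stood in place of 26 dorsal symbols. Single values of some partner genes are not reported here.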

Additional observations from a re-analysis of the deposited data

Results flagged for a closer look

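Among 138 sets of 4 or 5 libraries tested for a value far from the others of its group (Dixon's criterion), 9 held one. Chance gives about 1 in 20. KO home cage 1 accounts for 4 of the 9: Ezh1 was at 80.2 CPM there with the nearest other library at 91.0, Ezh2 at 7.74 with the nearest at 4.94, Prdm2 at 42.1 with the nearest at 62.2, and Smyd2 at 76.4 with the nearest at 64.0. WT home cage 1 was highest for Kmt5b, at 72.8 CPM against 64.1 in the nearest library, and for Kmt5c, at 11.2 against 7.28. In KO fear, Kdm4d was low in library 2, at 0.361 CPM against 0.820 in the nearest, Smyd1 was low in library 1, at 0.547 against 1.45, and Prdm10 was high in library 4, at 10.4 against 8.55. Of these genes, Prdm2, Smyd2, Kmt5b and Prdm10 passed between KO and WT after fear.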

How the results depend on the processing

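Counts below are of the 57 genes. Between KO and WT after fear, 23 passed. The replicate block called 0, batch B1 alone 15, scaling within length bins (chosen after seeing the data) 11, and leaving out single libraries 0 to 33. DESeq2 called 28, limma-voom 25 and RLE size factors 26, against 27.9%, 25.4% and 22.7% of all genes. Of all genes, 17.3% passed in batch B1 alone and 18.4% with length bins. All genes called numbered 3298, 1544 without the batch term, 1 with the replicate block and 1 to 4610 with a library left out. The labels do not say that numbers pair samples, and same-numbered libraries correlated from -0.678 to 0.388 in their deviations, 5 of 21 over 0.1. In the other comparisons the block left the count of the 57 at 0, while all genes called went from 241 to 15 in WT fear against WT home cage, from 71 to 0 in the interaction and from 13 to 7 in KO against Het. In WT fear against WT home cage, 0 passed. Without the batch term it was 5, against 4.81% of all genes, and with length bins 1, against 3.45%. DESeq2 called 2, limma-voom 2, and leaving out a library gave 0 to 4. For the interaction these were 1 with DESeq2, 1 with limma-voom and 0 to 3 with a library left out. Leaving out a library gave 0 to 3 in Het against WT, 0 to 4 in KO against Het and 0 to 3 in KO against WT home cage. The cause of these differences was not tested. With KO numbers crossed in whole hippocampus, also chosen after seeing the data, 8 (KO against WT), 1 (Het against WT) and 24 (KO against Het) of all genes passed. No called value reversed. B1 libraries, with 5362773 to 9109104 counts, limit the low genes, such as Kdm4d, Smyd1 and Prdm9.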
